A study of Bombyx mori with 9 samples.

Results

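The redox defence genes described here are the transcripts for superoxide dismutases, catalase, peroxiredoxins, thioredoxins, sulfiredoxin and DJ-1 beta in silk glands of the domestic silkworm, Bombyx mori. Members were the gene models of the expression table whose description contains superoxide dismutase, catalase, peroxiredoxin or thioredoxin, together with the DJ-1 beta gene (BMDJ-1BETA) and the sulfiredoxin gene (BGIBMGA007947). Of 14623 BGIBMGA gene models 11 met this rule, and 9 of these had at least 1 FPKM in at least 3 of the 9 libraries. FPKM, fragments scaled for transcript size and for each library's mapped fragments, take account of transcript length, so levels of different genes may be compared. Descriptions were given for 1099 of the gene models, and family members without one could not be found by these words.

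The libraries came from 3 pure strains, picked by the submitters because their glands differ in weight, in a search for genes related to how the gland develops. A306 had the lightest glands, with a mean of 0.688 ± 0.0207 g, XH glands weighed 0.973 ± 0.00850 g, and A798 glands weighed 1.28 ± 0.0309 g (mean ± SD, n = 3 samples each, 2 stated weights averaged per sample). Animals of all strains were reared at 25 °C and 71% humidity and sampled on day 5 of the last larval instar, when the gland makes silk. There was no treatment and no mutant: strain was the only difference the labels give, and each strain had 3 libraries. Each sample has its own 2 stated weights, which differ from those of the others, so the samples were separately weighed material. The labels do not say how many animals each sample held. A p-value here reflects the spread among these libraries alone, part of which may be technical.

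Superoxide dismutases turn superoxide, a by-product of respiration, into hydrogen peroxide. Catalase and the peroxiredoxins then remove the peroxide, and thioredoxins return many of the oxidised peroxiredoxins to their reduced form. Sulfiredoxin, characterised in yeast and mammals, repairs peroxiredoxins whose catalytic cysteine has been oxidised too far. DJ-1 beta is the insect relative of human DJ-1 (PARK7), a protein with an oxidation-sensitive cysteine that protects cells from oxidative stress.

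FPKM summed to between 502510 and 587872 per library, and the number of reads behind them is unknown. Across the 4636 features tested, log2 values correlated at r = 0.961 to 0.966 within a strain and at r = 0.872 to 0.916 between strains. All 5 listed silk gland markers were measured, and they did not vary together between strains. The fibroin light chain gene FIBL stood at 23739 ± 171 FPKM in A306, 30547 ± 819 FPKM in XH and 20106 ± 600 FPKM in A798, and the fibroin-associated gene P25 at 4617 ± 61.2 FPKM in A306, 5912 ± 102 FPKM in XH and 3862 ± 156 FPKM in A798 (mean ± SD, n = 3 each). The fibroin heavy chain gene BGIBMGA005111 was lowest in A306, at 268 ± 5.81 FPKM, with 1479 ± 40.5 FPKM in XH and 854 ± 34.1 FPKM in A798. The transcription factor genes SGF1 (52.4 ± 4.48 FPKM in A306, 48.5 ± 0.550 FPKM in XH and 51.4 ± 2.25 FPKM in A798) and SGF3 (45.8 ± 3.93 FPKM in A306, 37.0 ± 1.88 FPKM in XH and 44.8 ± 1.69 FPKM in A798) had their lowest means in XH. Genes of fat body and haemolymph proteins, 13 of 19 listed ones measured, summed to 69.7 to 77.2 FPKM in A306, 1798 to 1881 FPKM in XH and 621 to 641 FPKM in A798. The 2 measured of 7 haemocyte genes summed to 1.96 to 2.96 FPKM in A306, 6.47 to 6.77 FPKM in XH and 1.95 to 2.26 FPKM in A798. These 2 ran in opposite directions between A306 and A798. PPO1 had 2.44 ± 0.501, 3.01 ± 0.273 and 1.38 ± 0.223 FPKM in A306, XH and A798, and PRO-PO2 had 0.0733 ± 0.0751, 3.63 ± 0.299 and 0.700 ± 0.0964 FPKM. The 3 measured of 5 muscle genes summed to 70.8 to 81.0 FPKM in A306, 66.9 to 71.6 FPKM in XH and 38.0 to 43.8 FPKM in A798. Most of it came from the actin gene A1 (72.9 ± 3.74 FPKM in A306, 62.0 ± 2.65 FPKM in XH and 38.2 ± 2.95 FPKM in A798). The myosin genes MLC-2 (0.677 ± 0.480, 3.41 ± 0.777 and 0.243 ± 0.235 FPKM in that order) and BGIBMGA012961 (2.87 ± 1.34, 3.94 ± 1.24 and 3.25 ± 0.799 FPKM) had their highest means in XH. The 25 measured of 178 cuticle genes summed to 12109 to 13467 FPKM in A306, 4269 to 4726 FPKM in XH and 3475 to 3634 FPKM in A798, most of it from 1 gene (BGIBMGA005303, 12461 ± 721 FPKM in A306, 3681 ± 241 FPKM in XH and 3180 ± 78.1 FPKM in A798). Of the 25, 3 were called higher and 11 lower in A306 than in XH (median log2 change -0.84), so the sum and the count of genes run in opposite directions there. Of the listed genes, 93 cuticle genes and 1 haemocyte gene were at 0 in all libraries. Strain differences in these markers run beside every comparison here, and their part in the results was not tested. In whole glands, fewer cells of a type and less RNA per cell cannot be told apart.

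Most of the redox genes were abundant and varied little between libraries of a strain. Thiol peroxiredoxin (JAFRAC1) was the most abundant member, at a mean of 647 FPKM over the 9 libraries, rank 120 of the 4636 features tested. Cu-Zn superoxide dismutase (BGIBMGA001307, 258 FPKM), 1-Cys peroxiredoxin (PRX, 161 FPKM) and mitochondrial SOD2 (107 FPKM) followed, then DJ-1 beta (81.5 FPKM), thioredoxin (BGIBMGA007904, 55.3 FPKM) and mitochondrial thioredoxin 2 (BGIBMGA012029, 43.8 FPKM). Catalase (CAT, 12.1 FPKM) and sulfiredoxin (8.75 FPKM) were the lowest of the 9. The middle of all tested features was a mean of 5.44 FPKM. The SD of log2 values between libraries of a strain was 0.0404 for SOD2, 0.0428 for PRX and 0.0647 for JAFRAC1, and lay between 0.0749 and 0.130 for Cu-Zn superoxide dismutase, DJ-1 beta and both thioredoxins, against a median of 0.200 over all features tested. Catalase, at 0.198, lay at that median, and sulfiredoxin far above it, at 1.116. The 2 peroxiredoxins together made up 56.0% to 61.0% of the summed FPKM of the 9 genes in every library, and the 2 superoxide dismutases 25.8% to 27.1%.

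The 2 rows below the minimum were further Cu-Zn superoxide dismutase genes. BMO.4921 was listed at 0 in all libraries, and BMO.8630 reached at most 0.310 FPKM, in XH replicate 2. Just inside the minimum, sulfiredoxin had at least 1 FPKM in 6 libraries; the other 8 genes had it in all 9.

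**Figure D1:**
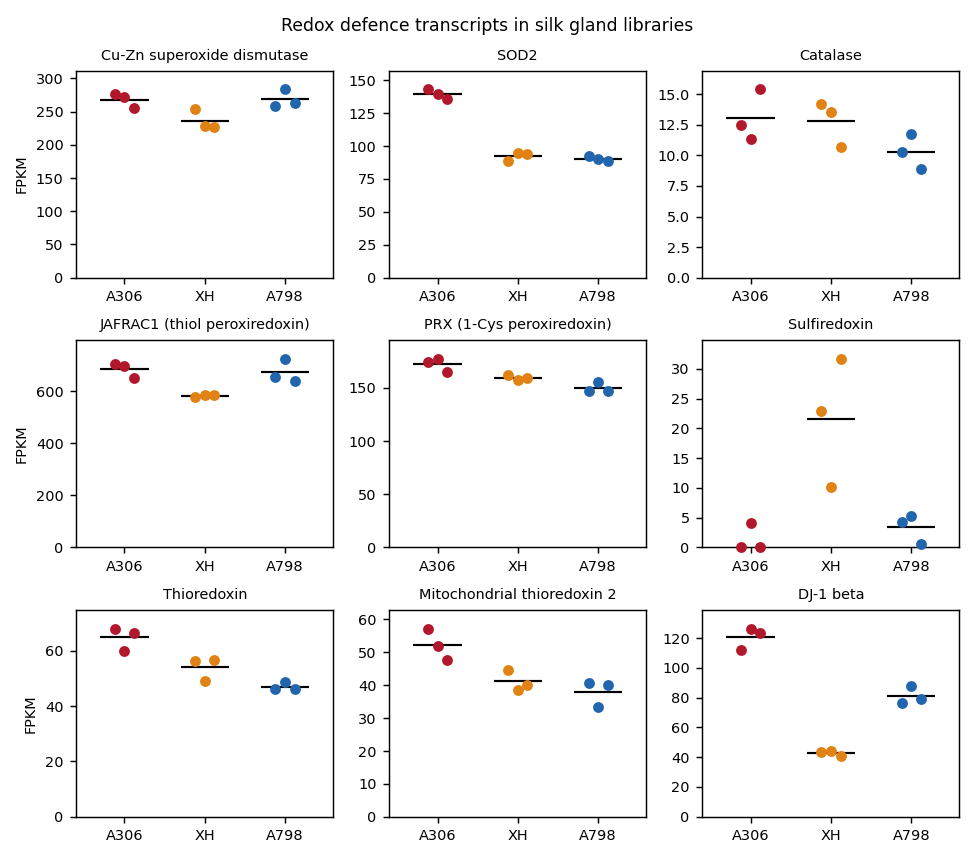
FPKM (y axis, from 0, own scale per panel) of the 9 redox defence genes in the 3 libraries each of A306, XH and A798 (x axis). Points are libraries and bars the strain mean, left out where a library is listed at 0. SOD2 is highest in the 3 A306 libraries (135 to 143 FPKM), DJ-1 beta falls into 3 separate levels, and sulfiredoxin is highest in XH.

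The strains were compared in 3 pairs on log2(FPKM + 1) with limma over all 4636 features. In A306 against A798, 5 of the 9 redox genes were called higher, 0 lower, and 4 missed the threshold; of all features 47.5% passed, 37.9% as higher and 9.6% as lower. The median log2 change of the 9 genes was 0.31, the same as the median of all features, 0.31. In XH against A798, 1 rose, 3 fell and 5 did not pass (all features 33.7%, 25.7% higher and 8.02% lower), with a median change of 0.09 beside 0.19 for all features. In A306 against XH, 6 rose, 1 fell and 2 did not pass (all features 36.5%, 23.1% higher and 13.4% lower), with a median of 0.23 beside 0.12. The libraries of the strains did not overlap for 5 genes in A306 against A798, 6 in XH against A798 and 8 in A306 against XH, where 56.7%, 46.3% and 50.1% of all features did not. These comparisons share strains and are not independent of each other.

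Most features stood higher in A306 than in XH, and higher in both than in A798, and small changes depended on how libraries were scaled. The other 4 scalings were TMM (a trimmed mean of log ratios), median centring, quantile normalization and equal library sums, taken without the 20 most abundant features. Under TMM scaling 1 member was higher and 3 were lower in A306 than in A798, and under median centring 2 were higher and 3 lower. The member calls that held in all 21 alternatives were SOD2, higher in A306 than in XH and A798, DJ-1 beta, lower in XH than in A306 and A798, and sulfiredoxin, lower in A306 than in XH.

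SOD2 encodes the manganese superoxide dismutase of mitochondria. Its level was 143, 139.5 and 135 FPKM in the A306 libraries, 89.0, 94.8 and 93.8 FPKM in XH, and 92.4, 90.4 and 88.4 FPKM in A798. All A306 libraries lay above all others, while XH and A798 overlapped. SOD2 rose 1.54-fold in A306 against A798 (log2 change 0.62 ± 0.04 SE, adjusted p = 1.18e-05) and 1.51-fold in A306 against XH (0.58 ± 0.04, adjusted p = 1.72e-05). Both calls held in all 21 alternatives, with log2 changes of 0.23 to 0.64 and of 0.43 to 0.61. The log2 change in XH against A798 was 0.03 (95% interval -0.06 to 0.13, adjusted p = 0.592), and it turned to -0.20 under TMM scaling, -0.21 under median centring and -0.16 under quantile normalization, where SOD2 was called lower in XH (adjusted p = 0.00274, 0.00276 and 0.0153).

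Cu-Zn superoxide dismutase, the cytosolic enzyme, had 276, 272 and 255 FPKM in A306, 254, 228 and 227 FPKM in XH, and 258, 283 and 263 FPKM in A798. The A306 and A798 libraries overlapped, and those of XH lay just below both. The log2 change in A306 against A798 was 0.00 (-0.0023; 95% interval -0.14 to 0.13, adjusted p = 0.98), which is -0.31 relative to the median of all features, and the gene was called lower in A306 under all 4 other scalings. It was called lower in XH than in A798 (-0.18 ± 0.06, adjusted p = 0.0472) and higher in A306 than in XH (0.18 ± 0.06, adjusted p = 0.046), but both calls were lost in more than 10 of 21 alternatives. The call in XH against A798 was lost without A306 replicate 1 or 2, XH replicate 2 or 3 or any A798 replicate (adjusted p = 0.0586 to 0.14), and that in A306 against XH without A306 replicate 1 or 2, XH replicate 2 or 3 or A798 replicate 1 or 3 (adjusted p = 0.0565 to 0.134).

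SOD2 per Cu-Zn superoxide dismutase within a library is free of any factor common to that library. Per 100 FPKM of the Cu-Zn gene, SOD2 had 51.7, 51.3 and 53.1 FPKM in A306, 35.0, 41.5 and 41.2 FPKM in XH, and 35.8, 31.9 and 33.6 FPKM in A798. The 3 A306 libraries lay above the other 6, and XH and A798 overlapped. This ratio and those of DJ-1 beta, of the thioredoxins and between the 2 peroxiredoxins were chosen after the values were seen and are given without a test.

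**Figure D2:**
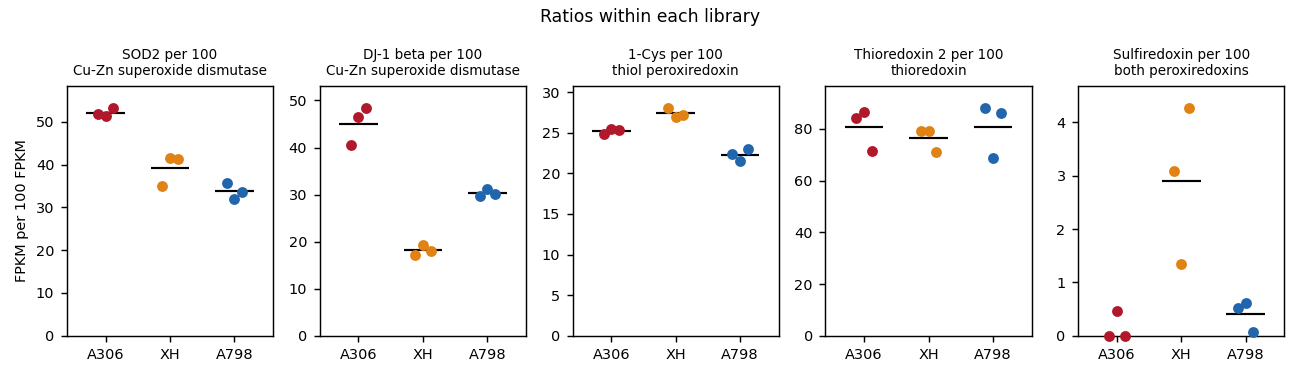
FPKM of one gene per 100 FPKM of another in the same library (y axis, from 0) for the 3 libraries each of A306, XH and A798 (x axis). Points are libraries and bars strain means, left out where a library is at 0. SOD2 per Cu-Zn superoxide dismutase is 51.3 to 53.1 in A306 and at most 41.5 elsewhere, while DJ-1 beta per Cu-Zn superoxide dismutase is lowest in XH, at 17.2 to 19.2.

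Catalase, which splits hydrogen peroxide in peroxisomes, did not pass the test in any comparison. It had 12.5, 11.4 and 15.4 FPKM in A306, 14.2, 13.6 and 10.7 FPKM in XH, and 10.3, 11.7 and 8.92 FPKM in A798. Libraries of all strains overlapped. The 95% interval of the log2 change was -0.04 to 0.66 in A306 against A798, -0.07 to 0.64 in XH against A798 and -0.32 to 0.38 in A306 against XH (adjusted p = 0.127, 0.194 and 0.915), so a change of more than 1.5-fold in A306 or XH against A798 lies within the intervals.

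JAFRAC1, the relative of the Drosophila 2-Cys peroxiredoxin Jafrac1, had 703, 696 and 652 FPKM in A306, 579, 586 and 585 FPKM in XH, and 656, 724 and 639 FPKM in A798. The XH libraries were the lowest and lay close together (SD 3.54 FPKM), and A306 and A798 overlapped. JAFRAC1 fell in XH against A798 (log2 change -0.20 ± 0.05, adjusted p = 0.0169), a call lost without XH replicate 1 (adjusted p = 0.0514) and without an intensity trend in the variance. It rose in A306 against XH (0.23 ± 0.05, adjusted p = 0.00896), but under quantile normalization the change was -0.01 (adjusted p = 0.922), and the call was also lost under TMM scaling (0.08, adjusted p = 0.244) and with equal library sums (0.13, adjusted p = 0.0528). In A306 against A798 the change was 0.02 (95% interval -0.09 to 0.14, adjusted p = 0.722), and all 4 other scalings turned it negative and called it lower in A306 (-0.37 to -0.17).

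PRX, a 1-Cys peroxiredoxin, a type that in mammals is reduced with glutathione, followed another order. It had 175, 177 and 165 FPKM in A306, 162, 158 and 159 FPKM in XH, and 147, 155 and 147 FPKM in A798, and no 2 strains overlapped. PRX rose in A306 against A798 as deposited (log2 change 0.20 ± 0.04, adjusted p = 0.00421), which is -0.10 relative to the median of all features, and PRX was called lower in A306 under TMM scaling (-0.19, adjusted p = 0.00948) and median centring (-0.12, adjusted p = 0.0324). It did not pass in XH against A798 (0.09, 95% interval 0.00 to 0.19, adjusted p = 0.12; called lower under TMM scaling and median centring, -0.15 each) or in A306 against XH (0.11, 95% interval 0.02 to 0.20, adjusted p = 0.068; adjusted p = 0.0373 without A306 replicate 3). Per 100 FPKM of JAFRAC1, PRX had 24.9, 25.5 and 25.3 FPKM in A306, 28.0, 27.0 and 27.2 FPKM in XH, and 22.4, 21.5 and 23.0 FPKM in A798. The 3 strains did not overlap in this ratio, with XH highest and A798 lowest.

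Sulfiredoxin varied more between libraries than any other member. A306 libraries were listed at 0, 4.07 and 0 FPKM, XH libraries at 22.9, 10.1 and 31.7 FPKM, and A798 libraries at 4.22, 5.33 and 0.510 FPKM. All XH libraries lay above the other 6, and A306 and A798 overlapped. An exact 0 in such a table can be a failed estimate, which was not tested here. Of the features tested, 4.96% had a 0 in 1 library and at least 4 FPKM in another of the same strain. So had sulfiredoxin in A306, where the limit of 4 FPKM lies just below its 4.07 FPKM.

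Sulfiredoxin was called lower in A306 than in XH (log2 change -3.58 ± 0.80, adjusted p = 0.0093), and the call held in all 21 alternatives (adjusted p = 0.00323 to 0.0355). The size of the change depends on the pseudocount and ran from -5.81 to -3.19. Both the call and its size depend on A306 libraries listed at 0, and no alternative set those zeros aside. XH was called higher than A798 (2.48 ± 0.80, adjusted p = 0.0465), and this call was lost in 16 of 21 alternatives, among them without A306 replicate 1 or 3, XH replicate 1 or 3 or any A798 replicate (adjusted p = 0.0535 to 0.136). In A306 against A798 the change was -1.10 (95% interval -2.96 to 0.76, adjusted p = 0.295).

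Sulfiredoxin per 100 FPKM of both peroxiredoxins was 0, 0.466 and 0 in A306, 3.09, 1.35 and 4.26 in XH, and 0.526, 0.606 and 0.0649 in A798. Whether both are substrates of sulfiredoxin was not tested. XH lay above the other 6 libraries in this measure too, while the peroxiredoxins themselves differed by at most 1.17-fold between strains as deposited.

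Thioredoxin, the small cytosolic protein that reduces peroxiredoxins, had 68.1, 59.9 and 66.7 FPKM in A306, 56.5, 49.0 and 56.6 FPKM in XH, and 46.1, 48.8 and 46.4 FPKM in A798. The strains did not overlap, with A306 highest and A798 lowest. Thioredoxin rose 1.38-fold in A306 against A798 (log2 change 0.45 ± 0.07, adjusted p = 0.00152). It rose in A306 against XH as well (0.26 ± 0.07, adjusted p = 0.0257), a call lost without A306 replicate 1 or 3 or XH replicate 2 (adjusted p = 0.0685 to 0.0842). It did not pass in XH against A798 (0.19, 95% interval 0.02 to 0.36, adjusted p = 0.0844), although without XH replicate 2 it did (adjusted p = 0.0287). Neither change in A306 passed under median centring, TMM scaling or quantile normalization, with changes of 0.07 to 0.18.

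Mitochondrial thioredoxin 2, its counterpart in mitochondria, had 57.3, 51.8 and 47.7 FPKM in A306, 44.6, 38.7 and 40.2 FPKM in XH, and 40.5, 33.5 and 39.9 FPKM in A798. A306 lay above both other strains, which overlapped. It rose 1.38-fold in A306 against A798 (0.45 ± 0.10, adjusted p = 0.00687) and 1.27-fold in A306 against XH (0.34 ± 0.10, adjusted p = 0.0307). Both calls were lost under all 4 other scalings, and that against XH also without A306 replicate 1 or 2 or XH replicate 2 or 3 (adjusted p = 0.0727 to 0.0977). Its change in XH against A798 was 0.12 (95% interval -0.11 to 0.35, adjusted p = 0.425).

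Thioredoxin 2 per 100 FPKM of thioredoxin was 84.1, 86.6 and 71.5 in A306, 79.1, 79.0 and 70.9 in XH, and 87.9, 68.6 and 86.1 in A798. All 3 strains overlapped in this ratio.

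DJ-1 beta stood at a separate level in each strain. It had 112, 126 and 123.1 FPKM in A306, 43.7, 43.9 and 40.9 FPKM in XH, and 76.5, 88.1 and 79.2 FPKM in A798. No strains overlapped, and XH, of intermediate gland weight, was the lowest. DJ-1 beta was 2.81-fold higher in A306 than in XH (log2 change 1.47 ± 0.07, adjusted p = 1.68e-06). With sign taken into account, 95.3% of features had a lower log2 change, falls of any size among them. It fell by 0.91 ± 0.07 on the log2 scale in XH against A798, to 42.8 ± 1.65 against 81.2 ± 6.10 FPKM (mean ± SD, n = 3; adjusted p = 4.32e-05). Both calls held in all 21 alternatives (adjusted p at most 3.13e-05 and 0.000546). It rose 1.48-fold in A306 against A798 (0.56 ± 0.07, adjusted p = 0.000336), a call lost under TMM scaling (0.18, adjusted p = 0.121) and quantile normalization (0.21, adjusted p = 0.0721).

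Per 100 FPKM of Cu-Zn superoxide dismutase, DJ-1 beta had 40.6, 46.4 and 48.3 FPKM in A306, 17.2, 19.2 and 18.0 FPKM in XH, and 29.6, 31.1 and 30.1 FPKM in A798. The 3 levels stayed apart within libraries, in the order A306, A798, XH.

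**Figure D3:**
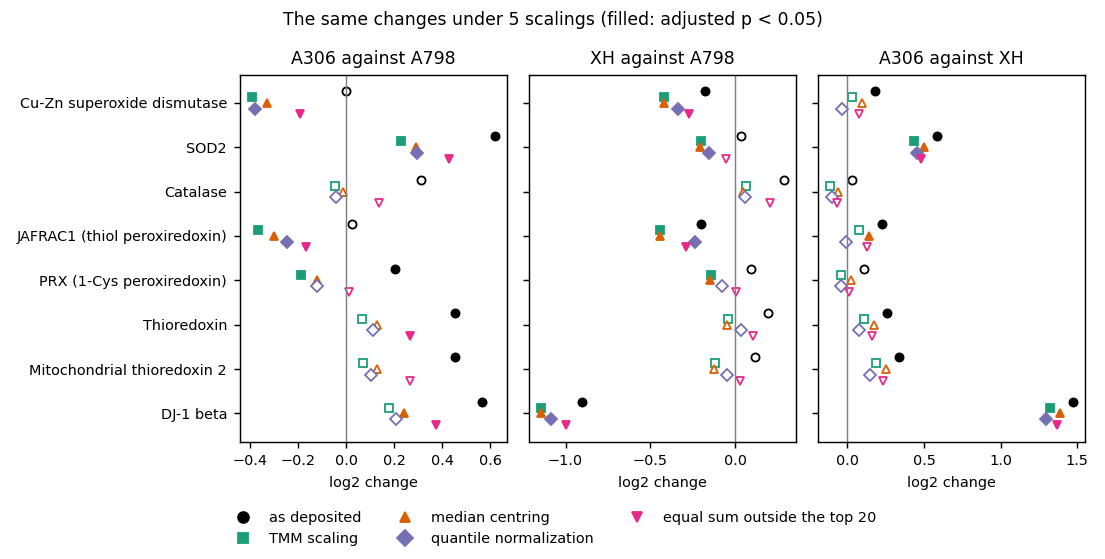
Log2 change (x axis) of 8 redox defence genes (y axis) in A306 against A798, XH against A798 and A306 against XH, with FPKM as deposited and under 4 other scalings (symbols); filled symbols have an adjusted p below 0.05. Sulfiredoxin, whose changes run past this range, is left out. SOD2 stays above 0 and filled in A306 against A798 and A306 against XH, and DJ-1 beta stays filled below 0 in XH against A798, while the peroxiredoxins cross 0 in A306 against A798 (PRX from 0.20 as deposited to -0.19 under TMM scaling).

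Across strains, 5 of the 9 genes (catalase, SOD2, thioredoxin, thioredoxin 2 and PRX) had means in the order A306, XH, A798 as deposited, the reverse of gland weight. So had 35.6% of all features tested, and no test of the difference was made. Of these 5 genes, 0 kept the order in the fitted changes under TMM scaling and under median centring, 1 (thioredoxin) under quantile normalization, and 3 (both thioredoxins and PRX) with equal library sums. As deposited, JAFRAC1, Cu-Zn superoxide dismutase and DJ-1 beta were instead lowest in XH, and sulfiredoxin was highest there.

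The glutathione system, the other main route by which cells remove peroxides and conjugate reactive compounds, was read from 9 genes named for glutathione or glutaredoxin, 8 of them measured. In A306 against A798, 4 were called higher, 1 lower and 3 neither, with a median log2 change of 0.64 beside 0.31 for all features, of which 37.9% were called higher and 9.6% lower. Under TMM scaling 3 were higher and 2 lower there (median 0.32). In XH against A798, 1 rose and 7 did not pass (median 0.12 beside 0.19; all features 25.7% higher and 8.02% lower). Under the 4 other scalings 0 were called higher, and under TMM scaling, median centring or quantile normalization 1, GSTD3, was called lower, with list medians of -0.07, -0.11 and -0.08. In A306 against XH, 2 rose, 1 fell and 5 did not pass (median 0.40 beside 0.12; all features 23.1% higher and 13.4% lower), against 1 higher and 2 lower under TMM scaling (median 0.25). The glutathione peroxidase gene GPX had means of 60.2 FPKM in A306, 45.8 FPKM in XH and 34.8 FPKM in A798, with no overlap. It was called higher in A306 than in A798 (log2 change 0.79, adjusted p = 0.00314). That call was lost under TMM scaling (adjusted p = 0.0886), median centring (0.051) and quantile normalization (0.0551). JHEH-LP3, also described as a glutathione peroxidase, had means of 2.21, 2.99 and 2.42 FPKM and was not called as deposited. Glutathione S-transferases join glutathione to electrophiles.

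GSTD3, a delta-class transferase, had 14.8, 18.2 and 18.5 FPKM in A306, 6.35, 5.06 and 5.85 FPKM in XH, and 8.02, 8.84 and 6.04 FPKM in A798. It rose in A306 against A798 (log2 change 1.08, adjusted p = 0.000655) and in A306 against XH (1.42, adjusted p = 0.000176), and both calls held under all 4 other scalings. In XH against A798 its change was -0.34 (adjusted p = 0.12) as deposited, and it was called lower in XH under TMM scaling (-0.56, adjusted p = 0.0241), median centring (-0.58, adjusted p = 0.0189) and quantile normalization (-0.60, adjusted p = 0.0181), and without A798 replicate 3 (-0.48, adjusted p = 0.0343). Another delta-class gene, BGIBMGA002222, had 23.4, 25.0 and 48.3 FPKM in A306, 6.43, 17.1 and 15.3 FPKM in XH, and 4.82, 7.98 and 9.74 FPKM in A798. Both were highest in A306. BGIBMGA002222 rose in A306 against A798 (1.93, adjusted p = 0.00634) and against XH (1.28, adjusted p = 0.0458), and the call against XH was lost in 15 of 21 alternatives, among them without any A306 replicate, XH replicate 1 or 3 or A798 replicate 2 or 3 (adjusted p = 0.0557 to 0.136).

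The omega-class gene GSTO had 13.6, 11.1 and 10.2 FPKM in A306, 7.21, 10.1 and 8.22 FPKM in XH, and 4.05, 3.71 and 6.77 FPKM in A798. It rose in A306 against A798 (1.14, adjusted p = 0.00299). It also rose in XH against A798 as deposited (0.73, adjusted p = 0.0315), a call lost in 11 of 21 alternatives, among them without XH replicate 2 or 3 or A798 replicate 1 or 2 (adjusted p = 0.0727 to 0.0988). Every A306 library listed the sigma-class gene BGIBMGA009107 at 0, while XH libraries had 8.78, 14.0 and 14.5 FPKM and A798 libraries had 11.5, 15.9 and 9.07 FPKM. These zeros may be failed estimates, which was not tested. Of 55 ribosomal protein genes, 7 were listed at 0 in all libraries. How many were at 0 in 1 strain only, as this gene was, was not counted. No fold is given, and the call of this gene as lower in A306 rests on its zeros.

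**Figure D4:**
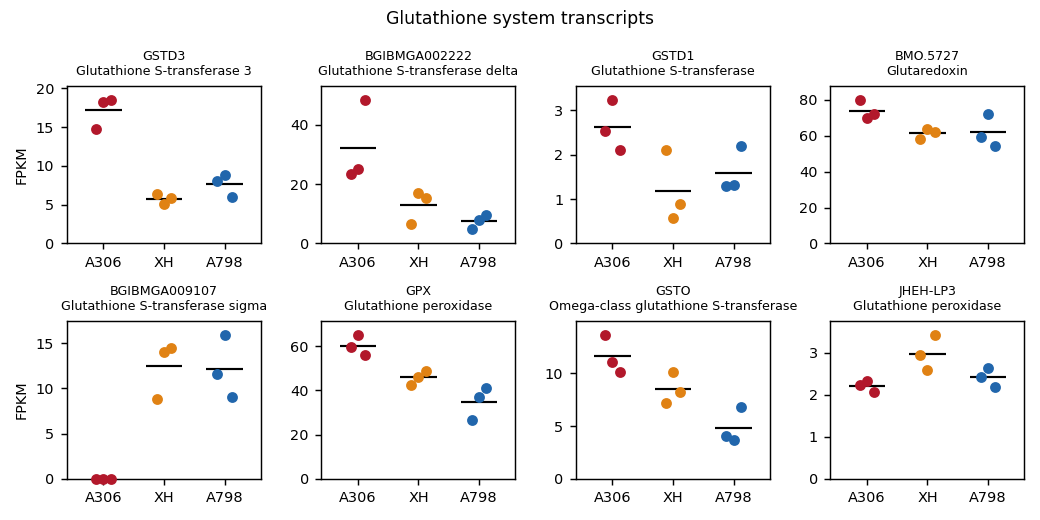
FPKM (y axis, from 0, own scale per panel) of the 8 measured glutathione system genes in the 3 libraries each of A306, XH and A798 (x axis). Points are libraries and bars strain means, left out where a library is at 0. GSTD3 is at 14.8 to 18.5 FPKM in A306 and at most 8.84 FPKM elsewhere, while the sigma-class gene BGIBMGA009107 is listed at 0 in A306.

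Another list held enzymes that supply NADPH, which thioredoxin and glutathione reduction consume, together with cytochrome P450 and aldehyde enzymes; 8 of its 19 genes were measured. In A306 against A798, 5 rose, 2 fell and 1 did not pass (median 0.48 beside 0.31 for all features, of which 37.9% were higher and 9.6% lower), and under TMM scaling 3 were higher and 2 lower (median 0.21). In XH against A798, 6 rose and 2 did not pass (median 0.48 beside 0.19; all features 25.7% higher and 8.02% lower), and 6 were higher under TMM scaling too (median 0.26). In A306 against XH, 2 rose, 4 fell and 2 did not pass (median -0.44 beside 0.12; all features 23.1% higher and 13.4% lower), against 2 higher and 5 lower under TMM scaling (median -0.56). Glucose-6-phosphate dehydrogenase (BGIBMGA005966), the first enzyme of the pentose phosphate route to NADPH, had 20.6, 19.3 and 21.4 FPKM in A306, 32.2, 34.6 and 31.4 FPKM in XH, and 12.5, 11.4 and 11.3 FPKM in A798. XH was highest and A798 lowest, with no overlap. It rose in XH against A798 (log2 change 1.41, adjusted p = 3.65e-06) and in A306 against A798 (0.76, adjusted p = 6.74e-05), and both calls held under all 4 other scalings.

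The NADP-dependent oxidoreductase gene BGIBMGA007098 had 90.3, 86.8 and 87.8 FPKM in A306, 39.7, 41.1 and 43.7 FPKM in XH, and 31.1, 30.8 and 28.1 FPKM in A798. It rose in A306 against A798 (1.53, adjusted p = 4.47e-07) and in A306 against XH (1.07, adjusted p = 3.17e-06). Mitochondrial aldehyde dehydrogenase (BGIBMGA010403) stood at 18.4 ± 1.29 FPKM in A306, 26.7 ± 1.79 FPKM in XH and 12.1 ± 0.866 FPKM in A798 (mean ± SD, n = 3 each), highest in XH. Its rise in XH against A798 (1.08, adjusted p = 4.36e-05) held under all 4 other scalings, and that in A306 against A798 (0.57, adjusted p = 0.000865) was lost under 3 of them. CYP306A1, known as an ecdysone synthesis enzyme rather than a redox one, was at 0.433 ± 0.122 FPKM in A306, 8.06 ± 0.310 FPKM in XH and 6.41 ± 0.797 FPKM in A798 (mean ± SD, n = 3 each), and fell in A306 against A798 (-2.37, adjusted p = 2.63e-06) and against XH (-2.66, adjusted p = 1.18e-06). For the lists of protein disulfide isomerases, iron binding proteins and redox sensors, 0 genes were matched.

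Genes with a similar pattern were ranked by Pearson's r of log2 values over the 9 libraries, among 554 other genes with a name or description. The 9 points fall into 3 strains and share libraries, so r is a description. For DJ-1 beta the 5 closest were the vacuolar ATPase subunit F gene BGIBMGA008011 (r = 0.950; 166 ± 14.9 FPKM in A306, 109.9 ± 2.07 FPKM in XH and 140.1 ± 3.63 FPKM in A798, mean ± SD, n = 3 each), a phosphate co-transporter gene (BGIBMGA014105, r = 0.937), a dynactin 4 gene (BGIBMGA005274, r = 0.932), an Unc-50-like gene (BGIBMGA008674, r = 0.919) and the carboxylesterase AE13 (r = 0.916). All 5 were lowest in XH. The phosphate co-transporter gene was listed at 0 in every XH library (18.3 ± 6.61 FPKM in A306 and 14.7 ± 7.88 FPKM in A798), so its r values here depend on those zeros. For sulfiredoxin they were the chemosensory protein CSP6 (r = 0.944), JHEH-LP3, described as a glutathione peroxidase (r = 0.931), a scolexin gene (BGIBMGA006423, r = 0.930), the ubiquitin-conjugating enzyme gene BMO.4961 (r = 0.926) and the 30K protein LSP-T (r = 0.920). LSP-T belongs to the fat body and haemolymph genes summed above, which were highest in XH as sulfiredoxin was. For JAFRAC1 they were the same phosphate co-transporter gene (BGIBMGA014105, r = 0.957), DNAJ-6 (r = 0.942), an actin-related protein gene (BGIBMGA012151, r = 0.914), a proteasome subunit beta gene (BGIBMGA003009, r = 0.905) and L(B002) (r = 0.904).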

How the data were processed

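RNA-seq of silk glands was analysed for 9 libraries, 3 per strain. The values are FPKM that the authors deposited for 15745 features. Per the submitters' processing notes fastp 0.19.5, StringTie 1.3.3b and DESeq2 1.24.0 were used; aligner, build and annotation: not given in the sources used here. No counts were used here, and read depth is unknown, so no counting intervals can be given. The strain mean columns and a further deposited table were not used.

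Features with at least 1 FPKM in at least 3 libraries were kept (4636), and log2(FPKM + 1) was fitted over all 3 strains with limma 3.58.1 in R 4.3.3, with an intensity trend. Changes are on this scale, which understates those of low genes. Calls have a two-sided Benjamini-Hochberg adjusted p below 0.05 over all features. The procedure was tested on simulated data. The members, gene lists and ratios were chosen with earlier results of these data known. Named were all members, the 5 genes most like sulfiredoxin, DJ-1 beta and the most abundant member, and defining markers. Up to 4 called genes with the largest change per pathway list were also named, as were the glutathione peroxidase genes. Alternatives changed the pseudocount, filter, scaling, samples fitted, trend and replicate block, or left out each library. Symbols of 4 members and 0 feature identifiers were found in the RefSeq table of assembly ASM3026992v2, which was used for names only.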

Additional observations from a re-analysis of the deposited data

How the results depend on the processing

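Read depth is unknown, and 3 libraries per strain limit the precision. The alternatives gave 1557 values, made up of log2 changes, counts of calls and ratios. Of these 1317 stayed the same. For log2 changes that means the same direction and side of the threshold, and for counts and ratios a value near the main one. Among the log2 changes 101 lost and 10 gained a call and 42 changed sign, while 87 counts or ratios moved further. The cause was not tested. SOD2 in A306 against both strains, DJ-1 beta in XH against both strains and sulfiredoxin in A306 against XH kept their calls in all 21 alternatives. As deposited, 79.8% (A306 against A798), 76.2% (XH against A798) and 63.3% (A306 against XH) of called features were higher, beside 47%, 49% and 48.1% under TMM scaling, 47.6%, 44.1% and 54% under median centring, 53.5%, 52.2% and 52.4% under quantile normalization, and 67.3%, 67.2% and 53% after equalising library sums without their 20 most abundant features (equal sums). Without a filter 2189 of 10327 features (21.2%) passed in A306 against A798, beside 2204 of 4636.

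In A306 against A798, 1 member was higher and 3 lower under TMM scaling, 2 and 3 under median centring, 1 and 2 under quantile normalization (3 called), and 3 and 2 with equal sums. The sign turned for catalase (-0.048 under TMM scaling, -0.013 under median centring, -0.042 under quantile normalization), JAFRAC1 (-0.37, -0.30, -0.25, and -0.17 with equal sums) and PRX (-0.19, -0.12, -0.12). In XH against A798, 0 members were higher under all 4 scalings, both other pseudocounts (0.1 and 0.5), no filter (2 called), no intensity trend (1 called, 1 lower) and the replicate block (2 called), and 5 were lower under TMM scaling and median centring. The sign turned for SOD2 (-0.20, -0.21, -0.16 and -0.056 in the order TMM, median, quantile, equal sums), thioredoxin (-0.044 and -0.048 under TMM and median), thioredoxin 2 (-0.12, -0.12 and -0.049), PRX (-0.15, -0.15 and -0.080) and the sigma-class transferase BGIBMGA009107 (-0.19, -0.21, -0.19 and -0.052). In A306 against XH, 3 members were called under TMM scaling, 4 under median centring, 3 under quantile normalization and 3 with equal sums, of which 2, 3, 2 and 2 were higher. The sign turned for catalase (-0.11, -0.059, -0.10 and -0.068), PRX (-0.041 under TMM and -0.040 under quantile), and, under quantile normalization, Cu-Zn superoxide dismutase (-0.038) and JAFRAC1 (-0.0084).

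Leaving out 1 library gave 5 calls throughout in A306 against A798 (5 higher, 0 lower). It gave 2 to 4 calls in XH against A798 (0 to 2 higher, 2 to 3 lower), with 2 calls without A306 replicate 1, XH replicate 1 or 3 or any A798 replicate. It gave 4 to 7 calls in A306 against XH (3 to 6 higher, 1 lower), with 4 calls without A306 replicate 1 or XH replicate 2. Sulfiredoxin per 100 FPKM of both peroxiredoxins lay between 0 and 0.233 in A306, between 2.22 and 3.67 in XH, and between 0.295 and 0.566 in A798. The log2 change ranged from -0.029 to 0.038 for Cu-Zn superoxide dismutase and from -0.012 to 0.079 for JAFRAC1 (A306 against A798), from -0.090 to 0.12 for catalase (A306 against XH) and from -0.15 to 0.24 for BGIBMGA009107 (XH against A798). With the replicate number as a block, 2080, 1388 and 1589 features were called, against 2204, 1563 and 1693. Same-numbered libraries deviated together at r of 0.000 to 0.063, and differently numbered ones at r of -0.093 to 0.036. Any shared deviation was thus weak, which cannot show whether the numbers pair libraries.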
